A study of Mus musculus with 10 samples.

Results

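The 8 genes described here take up vitamin B12 and folate or handle them after uptake, and they were followed through 5 groups of mouse ileum. They were chosen by name, as Cubn, Amn, Lrp2, Dab2, Tcn2, Mmab, Slc46a1 and Folh1, and read through the probes that carry those names in the rtTA +DOX array files. Of these genes, 7 had probes of that name (12 probes), and Slc46a1 was found through its RefSeq accession on 1 probe that the files name D11Ertd18e, an older synonym. In all, 13 probes read 8 of the 27554 gene names on the array. A gene entered the tests if 1 of its probes was well above background in both replicates of any group. This left 7 of the 8 among 19049 genes tested, because the only Folh1 probe was not well above background on any array.

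RNA came from the ileum, the final stretch of small bowel, of C57BL/6 mice 6 to 8 weeks old, and each of 5 groups had 2 one-colour Agilent arrays, 10 in all. The groups were TetON-Oct4 X TetON-Sox2 mice with doxycycline (Sox2xOct4 +DOX), TetON-Oct4 mice with doxycycline (Oct4 +DOX), TetON-Sox2 mice with doxycycline (Sox2 +DOX), rtTA controls without the TetOP-Sox2 transgene with doxycycline (rtTA +DOX), and TetON-Sox2 mice left without it (Sox2 -DOX). In a TetON animal, doxycycline (DOX) lets the regulator rtTA switch the transgene on, and DOX was given at 2 mg/ml in drinking water with 1% sucrose for 2 days. RNA was taken from whole tissue. The untreated Sox2 -DOX mice have no sucrose on record, so DOX and sucrose differ together wherever they serve as control. The promoter that drives rtTA, and so the cells that switch the transgene on, is not stated in the labels. Whether the 2 replicates of a group were different animals is not stated either. Sex-linked genes, given below, show different animals for Oct4 +DOX only. The p-values therefore cover only the spread between these samples, which may be technical in the other groups.

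Vitamin B12 is absorbed in the ileum. Bound to intrinsic factor, it is taken up at the enterocyte brush border by cubam, a complex of cubilin (Cubn), which binds the ligand, and amnionless (Amn), which anchors cubilin in the membrane and carries the endocytosis signals. Megalin (Lrp2) is a large endocytic receptor that works beside cubilin in kidney tubules, and Dab2 is an adaptor that links such receptors to clathrin. Transcobalamin (Tcn2) carries B12 in the blood, and Mmab makes its mitochondrial coenzyme form. Folate enters enterocytes through the proton-coupled folate transporter Slc46a1, after hydrolases such as Folh1, known from the human brush border, trim the polyglutamate chain of dietary folate.

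The 4 arrays of TetON-Sox2 mice shared slide 1, those of Sox2xOct4 +DOX and rtTA +DOX shared slide 2, and those of Oct4 +DOX shared slide 3, so group and slide cannot be told apart in any comparison that crosses slides. Between 63.5 and 70.5% of probes per array were well above background. Pou5f1, the gene of Oct4, was well above background in Oct4 +DOX (log2 levels of 6.20 and 4.79) and Sox2xOct4 +DOX (2.64 and 0.92) and on none of the other 6 arrays. The Sox2 probe was not well above background on any array, while Sox21, a relative of Sox2, stood at 0.98 and 0.44 in Sox2xOct4 +DOX and at 3.33 and 1.40 in Sox2 +DOX, against -4.92 to -3.28 in the other groups. The enterocyte genes Vil1, Slc10a2 and Fabp6 were well above background on all 10 arrays. The Y-linked gene Eif2s3y was well above background on the 4 TetON-Sox2 arrays and Oct4 +DOX replicate 1 only, so comparisons between slides also cross this difference. Within Oct4 +DOX it stood at 1.78 in replicate 1 and -7.86 in replicate 2. Xist, a gene active in females, stood at -6.80 (not well above background) and 2.62. These 2 arrays therefore came from animals of different sex.

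The pair of cubam genes fell together and lay far down the list of all genes in Sox2 +DOX. Because of this, their upstream sequences are shown first, with those of Lrp2, which stood out in Oct4 +DOX, and of Slc46a1, the folate transporter. Each line gives the 250 bases before the RefSeq start site on build GRCm38.p6, 5′ to 3′ on the gene's strand. Capitals mark matches, on either strand, to the Sox core ACAAT or the Cdx core TTTAT.
Cubn (chr2:13491877-13492126, minus strand): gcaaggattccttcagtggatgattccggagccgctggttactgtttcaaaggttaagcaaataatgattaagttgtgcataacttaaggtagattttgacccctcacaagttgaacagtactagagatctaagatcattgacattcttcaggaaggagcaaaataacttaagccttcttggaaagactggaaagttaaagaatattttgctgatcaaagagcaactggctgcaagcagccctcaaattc
Amn (chr12:111270846-111271095, plus strand): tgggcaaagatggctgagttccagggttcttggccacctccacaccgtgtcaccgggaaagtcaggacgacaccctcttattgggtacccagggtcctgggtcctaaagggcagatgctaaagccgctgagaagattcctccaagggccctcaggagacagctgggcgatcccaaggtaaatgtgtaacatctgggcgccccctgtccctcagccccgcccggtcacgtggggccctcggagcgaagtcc
Lrp2 (chr2:69586030-69586279, minus strand): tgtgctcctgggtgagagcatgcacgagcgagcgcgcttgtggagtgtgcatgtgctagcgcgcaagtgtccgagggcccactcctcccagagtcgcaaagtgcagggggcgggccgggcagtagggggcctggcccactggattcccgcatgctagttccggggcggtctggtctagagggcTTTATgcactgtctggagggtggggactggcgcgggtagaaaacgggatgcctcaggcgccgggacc
Slc46a1 (chr11:78465451-78465700, plus strand): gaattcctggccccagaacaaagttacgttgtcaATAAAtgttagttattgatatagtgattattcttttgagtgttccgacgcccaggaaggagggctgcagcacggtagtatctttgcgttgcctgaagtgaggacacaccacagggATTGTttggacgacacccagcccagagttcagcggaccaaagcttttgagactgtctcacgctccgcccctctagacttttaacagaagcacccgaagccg
The octamer ATGCAAAT, bound by Oct factors, and the Hnf4 site CAAAGTCCA were searched too and had no match in these 4 windows. Slc46a1 had 1 match to the Sox core, at positions -101 to -97 from the start, and 1 to the Cdx core, at -216 to -212, both on the other strand. Lrp2 had 1 match to the Cdx core, at -67 to -63. Neither Cubn nor Amn had a match to any of the 4 motifs in this window. No matches overlapped. Among 32851 upstream windows of the same length, 27.7% held the Sox core, 37.3% the Cdx core, 1.6% the octamer and 0.4% the Hnf4 site. The base composition of the pair differed, with 39.6% G and C in the Cubn window and 61.2% in the Amn window. These matches are descriptions of letters in a window and say nothing of whether a factor bound there.

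The probes that carry the readings of Amn and one of those of Lrp2 are shown because each covers more genome than its 60 bases, as a probe over a splice junction does. Positions follow the deposited annotation (build NCBI36/mm8), and the sequences are the deposited probes, 5′ to 3′, with no part in capitals.
Amn probe 1 (chr12:111723692-111723840, plus strand): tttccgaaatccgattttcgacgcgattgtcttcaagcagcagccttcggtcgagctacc
Lrp2 probe 3 (chr2:69308666-69308811, minus strand): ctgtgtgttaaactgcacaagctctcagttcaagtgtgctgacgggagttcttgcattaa
The Amn probe spans 149 bases of genome and Lrp2 probe 3 spans 146. Exon and UTR annotation of that build was not used here. The Cubn probe lies on chromosome 2 at 13194214 to 13194273, the Tcn2 probe on chromosome 11 at 3822050 to 3822109, and the Slc46a1 probe on chromosome 11 at 78287725 to 78287784.

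Levels below are the log2 of an array's processed signal minus the array's own 75th percentile, so 0 marks a probe as bright as that percentile. A change is the difference of 2 group means on this log2 scale, and a gene is said to have risen or fallen where limma's adjusted p, taken over all 19049 genes, was under 0.05. Levels are compared only within a gene, since probes differ in brightness.

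**Figure D1:**
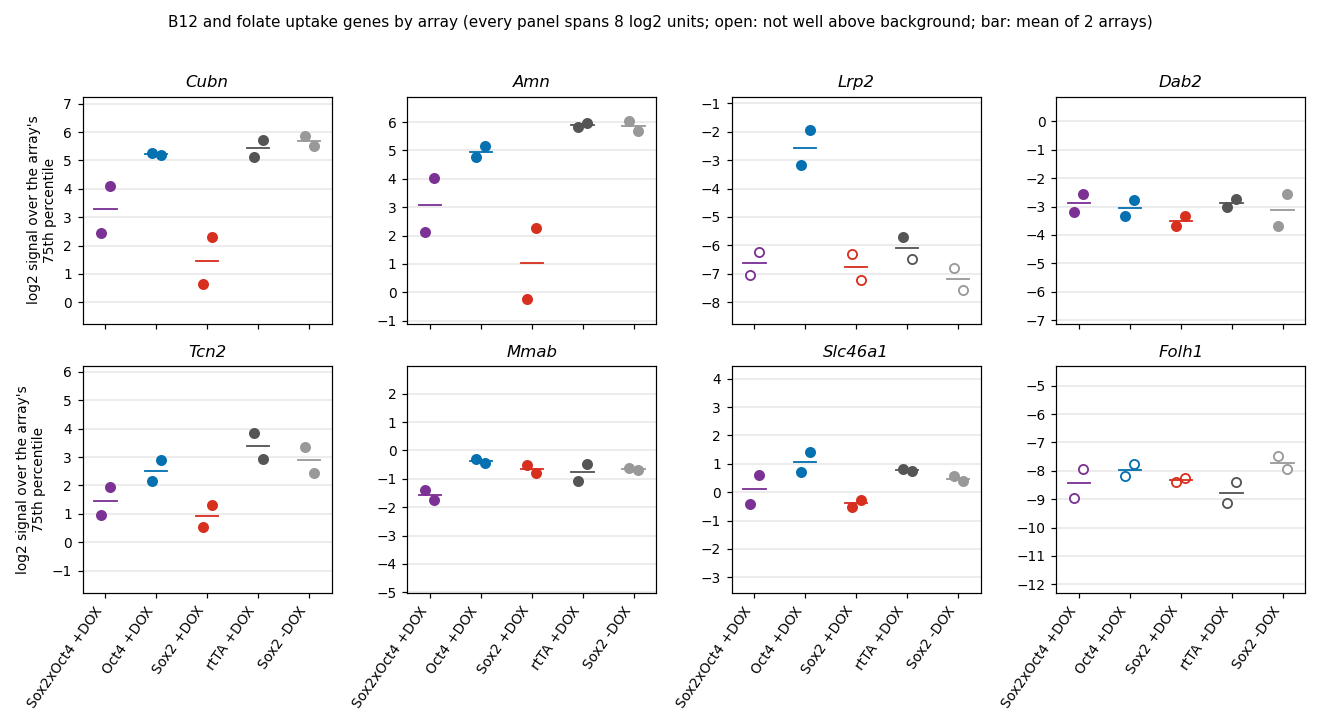
Log2 level relative to each array's 75th percentile (y axis) of the 8 genes in each array, by group (x axis), from the probe that stood for each gene; every panel spans 8 log2 units, bars are means of 2 arrays and open circles were not well above background. Cubn and Amn sit lowest in Sox2 +DOX (means of 1.47 and 1.01), Lrp2 is clear of background in Oct4 +DOX, and Folh1 is open throughout.

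In TetON-Sox2 mice given DOX, RNA of both genes of the B12 receptor complex fell. Cubn had log2 levels of 0.65 and 2.29 in Sox2 +DOX, against 5.86 and 5.50 in Sox2 -DOX. Both Sox2 +DOX arrays were lower than both Sox2 -DOX arrays, and replicate 1 was the lower of the 2. Cubn was 18.5-fold lower (log2 change -4.21 ± 0.65, SE, n = 2 against 2, limma adjusted p = 0.01). Amn had levels of -0.22 and 2.25 in Sox2 +DOX, against 6.02 and 5.69 in Sox2 -DOX. The groups again did not overlap, and Amn was 28.7-fold lower (log2 change -4.85 ± 0.81, limma adjusted p = 0.014). Of all genes tested, 0.5% had a change as low as that of Cubn and 0.3% one as low as that of Amn.

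The other genes moved less in this comparison. Tcn2, the blood carrier of B12, had levels of 0.53 and 1.30 in Sox2 +DOX, against 3.35 and 2.42 in Sox2 -DOX. These did not overlap, but the log2 change of -1.97 ± 0.54 did not pass the test (limma adjusted p = 0.062), and it passed with a variance trend (0.037). Slc46a1, the folate transporter, stood at -0.53 and -0.26 in Sox2 +DOX, against 0.56 and 0.40 in Sox2 -DOX. Its log2 change of -0.87 ± 0.39 did not pass either (limma adjusted p = 0.20), and its 95% confidence interval ran from -1.78 to 0.03. The adaptor Dab2 gave -0.38 ± 0.44 (limma adjusted p = 0.61), and its groups overlapped. Mmab, which makes the mitochondrial coenzyme, gave 0.02 ± 0.31 (limma adjusted p = 0.98), with an interval of -0.69 to 0.72. Lrp2 did not stand well above background in these 4 arrays.

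Counted over the 7 tested genes, 2 fell and none rose, beside 7.83% of all genes called in either direction and 4.80% called lower. In 4 of the 7 every Sox2 +DOX array was below every Sox2 -DOX array, a pattern that 36.6% of all genes showed. Their median log2 change was -0.87, and that of all genes was -0.10. The calls of Cubn and Amn rest on few arrays. Where leaving out an array leaves 1 in a group, the fit takes that group's spread from the others. Without Sox2 +DOX replicate 1 the log2 change was -3.39 for Cubn (limma adjusted p = 0.066) and -3.61 for Amn (0.069), without Sox2 -DOX replicate 1 it was -4.03 and -4.68 (0.083 and 0.099), and without Sox2 -DOX replicate 2 it was -4.39 and -5.01 (0.057 and 0.071), so that neither was called. Without Sox2 +DOX replicate 2 both were called, at -5.03 and -6.08.

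The fall of the cubam genes came with lower enterocyte genes. A list of 10 enterocyte genes had a mean log2 level of 1.50 and 3.17 in Sox2 +DOX, against 5.18 and 4.89 in Sox2 -DOX, and all 10 were well above background on every array. Of the 10, 4 fell and none rose, with a median log2 change of -2.40, with 1 that fell when Sox2 +DOX replicate 1 was left out, 0 without either Sox2 -DOX array and 5 without Sox2 +DOX replicate 2. Their summed signal relative to the 75th percentile was 210 and 447 in Sox2 +DOX, against 970 and 850 in Sox2 -DOX. The array lower in Cubn and Amn, Sox2 +DOX replicate 1, was also the lower in these genes. Among 7 ileal enterocyte genes 3 fell, at a median of -1.93, and the list had mean levels of 2.81 and 3.76 in Sox2 +DOX, against 4.90 and 4.46 in Sox2 -DOX. None of the 7 fell without Sox2 +DOX replicate 1 or without either Sox2 -DOX array. In whole tissue, fewer cells of a type and less RNA per cell cannot be told apart. Of 8 enteroendocrine genes 3 fell, at a median of -0.25, and of 8 T cell genes 2 fell, at a median of -2.06. Among 7 goblet cell genes 6 had a change below 0 (median -0.96), as did all 7 genes of B and plasma cells (median -0.78), and none of either list passed the test. The median was -1.36 over 7 smooth muscle genes and -3.46 over 5 adipocyte genes, and none of these passed the test. It was -0.52 over 7 fibroblast genes, -0.09 over 7 endothelial genes and 0.58 over 8 genes of crypt stem and cycling cells, of which 1 fell. The part of cell makeup in the change of Cubn and Amn was not tested.

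**Figure D2:**
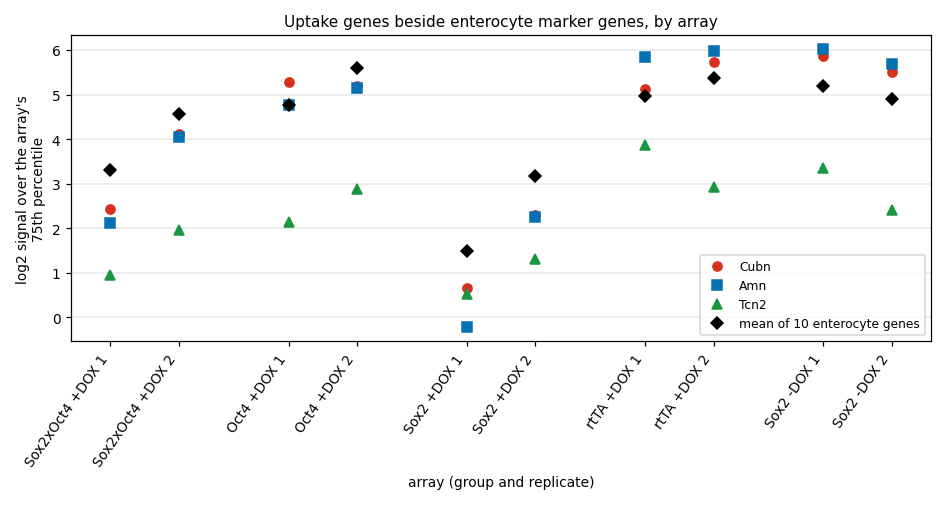
Log2 level (y axis) of Cubn, Amn and Tcn2 and the mean of 10 enterocyte genes in each of the 10 arrays (x axis, group and replicate). In Sox2xOct4 +DOX and Sox2 +DOX, replicate 1 is the lower array for all 4 series, down to -0.22 for Amn in Sox2 +DOX replicate 1.

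The same Sox2 +DOX arrays were also set against rtTA +DOX, on another slide, where both groups had DOX. This comparison shares its first group with the one above, so its values are not independent of them. Here 3 of the 7 genes fell, beside 8.38% of all genes called. Cubn had 5.13 and 5.73 in rtTA +DOX and was 15.6-fold lower in Sox2 +DOX (log2 change -3.96 ± 0.65, limma adjusted p = 0.012). Amn had 5.83 and 5.97 in rtTA +DOX and was 29.6-fold lower (-4.89 ± 0.81, limma adjusted p = 0.013). Tcn2 had 3.86 and 2.92 in rtTA +DOX and was 5.59-fold lower in Sox2 +DOX (-2.48 ± 0.54, limma adjusted p = 0.03). Slc46a1 gave -1.18 ± 0.39 (limma adjusted p = 0.10), Dab2 -0.62 ± 0.44 (0.38) and Mmab 0.12 ± 0.31 (0.83), none of which passed. Enterocyte genes moved with them, since 4 of 10 fell (median -2.24), as did 5 of 8 enteroendocrine genes (median -1.52). All 7 smooth muscle genes had a change below 0 (median -1.92), and none passed the test. The part of these genes' cells in the result was not tested. With only these groups in the fit Tcn2 was not called (limma adjusted p = 0.051). All 3 calls were lost without Sox2 +DOX replicate 1, rtTA +DOX replicate 1 or rtTA +DOX replicate 2, where the count was 0.

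**Figure D3:**
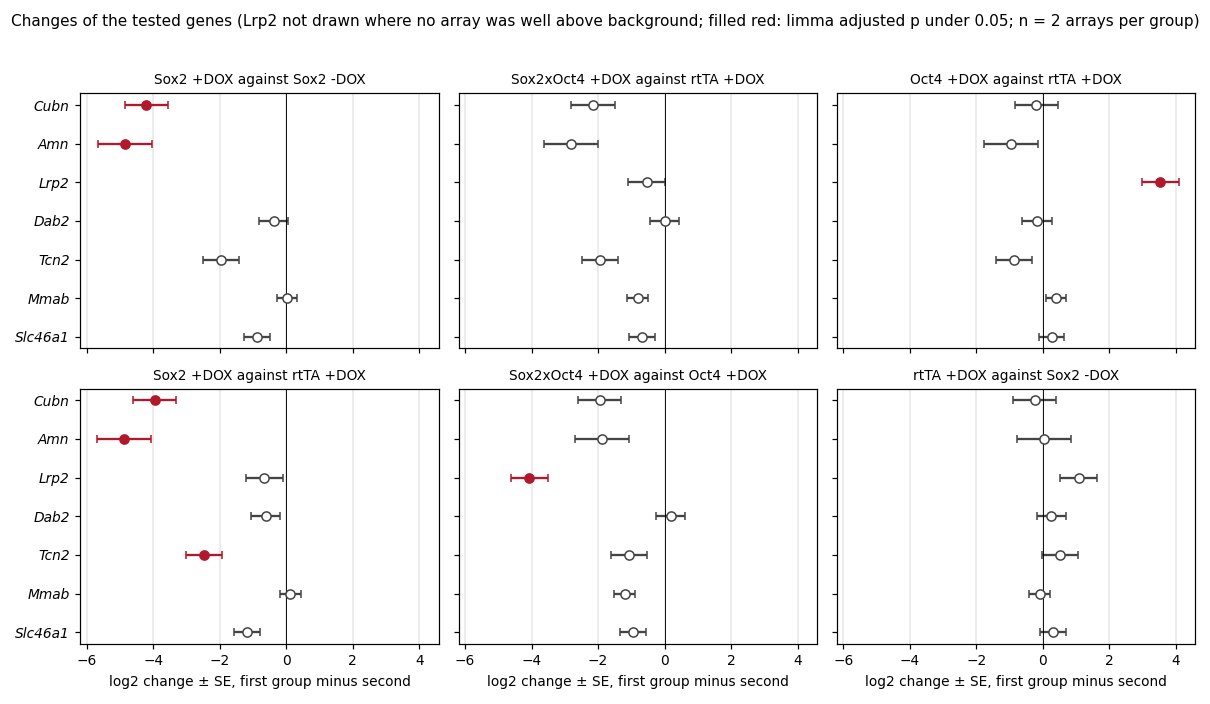
Log2 change ± SE (x axis, first group minus second) of each tested gene (y axis) in 6 comparisons, with 2 arrays per group; filled red points have a limma adjusted p under 0.05 and Lrp2 is not drawn where no array was well above background. Cubn and Amn are red in both comparisons of Sox2 +DOX. Lrp2 is red in both comparisons with Oct4 +DOX, the only group through which it passed the filter.

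Mice with both transgenes showed lower values of the same receptor genes, and none passed the test. Cubn had 2.44 and 4.11 in Sox2xOct4 +DOX, against 5.13 and 5.73 in rtTA +DOX on the same slide. Its log2 change was -2.15 ± 0.65, a 4.44-fold lower level (limma adjusted p = 0.09). Amn had 2.12 and 4.04 in Sox2xOct4 +DOX, against 5.83 and 5.97 in rtTA +DOX. The groups did not overlap, and the change was -2.81 ± 0.81, or 7.03-fold lower (limma adjusted p = 0.081). Tcn2 had 0.96 and 1.95 in Sox2xOct4 +DOX, against 3.86 and 2.92 in rtTA +DOX, a log2 change of -1.94 ± 0.54 (limma adjusted p = 0.073). Of all genes tested, 2.4% had a change as low as that of Cubn, 1.1% one as low as that of Amn and 3.3% one as low as that of Tcn2.

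Slc46a1 had -0.40 and 0.62 in Sox2xOct4 +DOX, against 0.81 and 0.76 in rtTA +DOX (log2 change -0.68 ± 0.39, limma adjusted p = 0.34). Mmab had -1.38 and -1.76 in Sox2xOct4 +DOX, against -1.07 and -0.46 in rtTA +DOX (-0.81 ± 0.31, limma adjusted p = 0.16). In both genes every Sox2xOct4 +DOX array was the lower. Dab2 gave a change of 0.00 ± 0.44, and its groups overlapped. Lrp2 was not well above background in Sox2xOct4 +DOX and was so on 1 of the 2 rtTA +DOX arrays.

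With limma, 0 of the 7 genes were called here and 4 had an unadjusted p under 0.05, beside 6.35% of all genes called in either direction and 3.16% called lower. In 5 of the 7 every Sox2xOct4 +DOX array lay below every rtTA +DOX array, which 24.1% of all genes did. The Sox2xOct4 +DOX arrays stood apart from each other. Replicate 1 had a mean log2 level of -5.93 over 5 adipocyte genes, of which 1 was well above background, and 2.34 over 7 smooth muscle genes, against 1.47 and 5.16 in replicate 2. Its 10 enterocyte genes averaged 3.31, against 4.57 in replicate 2, and the rtTA +DOX arrays had 4.96 and 5.37. None of the 10 passed the test, and their median log2 change was -1.10. That median was -0.55 without Sox2xOct4 +DOX replicate 1, with 7 of 10 below 0, -1.49 without replicate 2, with 1 that fell, and -0.70 without rtTA +DOX replicate 2. With replicate 1 alone, whose spread is then taken from the other groups, the change was -2.98 for Cubn (limma adjusted p = 0.044) and -3.77 for Amn (0.049). With replicate 2 alone it was -1.32 and -1.85 (0.29 and 0.27). A group of 1 array shows nothing of its own spread, so these values describe how far the 2 arrays differ. Of 7 ileal enterocyte genes 1 fell, at a median of -0.98, which was -1.37 without rtTA +DOX replicate 1 and -1.66 without replicate 2. Of 8 enteroendocrine genes 2 fell, at a median of -0.99. All 8 T cell genes had a change below 0 (median -1.09), while 1 of 7 endothelial genes did (median 0.38), and none of either list passed the test. The part of these tissue differences in the result was not tested.

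**Figure D4:**
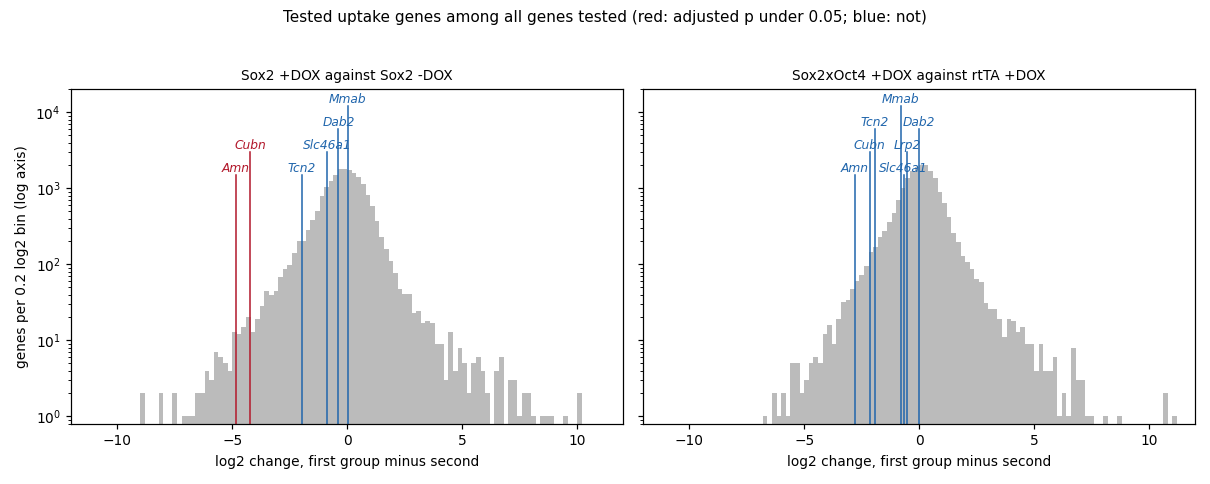
Number of genes per bin of 0.2 (y axis, log scale) by log2 change (x axis, first group minus second) for all 19049 genes. The tested uptake genes are marked, red where the adjusted p was under 0.05 and blue where not. Lrp2 is not marked in Sox2 +DOX against Sox2 -DOX, where no array was well above background. Cubn and Amn lie in the lower tail of both panels, at -4.21 and -4.85 in Sox2 +DOX against Sox2 -DOX and at -2.15 and -2.81 in Sox2xOct4 +DOX against rtTA +DOX.

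Whether the response to both transgenes differed from that to Sox2 was tested as the difference of these within-slide changes, which share no arrays. Their references differ, since rtTA +DOX mice had DOX and sucrose and Sox2 -DOX mice have neither on record. Eif2s3y also separated these slides. The difference therefore cannot be put down to the transgenes alone. For Cubn the change in Sox2xOct4 +DOX was 2.06 ± 0.91 above that in Sox2 +DOX on the log2 scale, with a 95% confidence interval of -0.03 to 4.15 (limma adjusted p = 0.53). For Amn the difference was 2.03 ± 1.15, with an interval of -0.61 to 4.67 (limma adjusted p = 0.64), and for Tcn2 it was 0.03 ± 0.76, with an interval of -1.72 to 1.78 (limma adjusted p = 0.99). Mmab gave -0.82 ± 0.43 (limma adjusted p = 0.62), Dab2 0.38 ± 0.62 (0.90) and Slc46a1 0.20 ± 0.56 (0.95). None of the 7 genes was called or had an unadjusted p under 0.05, beside 0.168% of all genes called with limma. These intervals do not show that the responses were alike.

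In Oct4 +DOX neither of the B12 receptor pair passed the test. The 1 gene of the 7 called higher, Lrp2, passed the filter only through this group, so its call adds no support for a rise. Cubn had 5.28 and 5.18 in Oct4 +DOX, against 5.13 and 5.73 in rtTA +DOX, and the groups overlapped (log2 change -0.20 ± 0.65, limma adjusted p = 0.93, 95% confidence interval -1.68 to 1.28). Amn had 4.76 and 5.15 in Oct4 +DOX, against 5.83 and 5.97 in rtTA +DOX (-0.95 ± 0.81, limma adjusted p = 0.68). Tcn2 had 2.15 and 2.89 in Oct4 +DOX, against 3.86 and 2.92 in rtTA +DOX. Its change of -0.87 ± 0.54 did not pass (limma adjusted p = 0.55). Slc46a1 had 0.70 and 1.40 in Oct4 +DOX, with a change of 0.26 ± 0.39 (limma adjusted p = 0.84). The call of Lrp2 alone among the 7, favoured by that filter, stands beside 1.01% of all genes called. The 10 enterocyte genes averaged 4.77 and 5.59 in Oct4 +DOX, against 4.96 and 5.37 in rtTA +DOX, and none of them passed the test. Other lists moved more. All 8 T cell genes had a change below 0 (median -1.69), as did all 7 genes each of smooth muscle (-0.85), fibroblasts (-0.53) and endothelium (-0.44). The median was 0.74 over 5 adipocyte genes and 0.35 over 7 genes of B and plasma cells. None of these genes passed the test, and the part of cell makeup was not tested.

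Lrp2, the endocytic receptor megalin, had log2 levels of -3.18 and -1.95 on probe 1 in Oct4 +DOX, against -5.71 and -6.49 in rtTA +DOX, where only the first was well above background. It was 11.6-fold higher (log2 change 3.53 ± 0.56, limma adjusted p = 0.031). Against Oct4 +DOX it was at least 14.7-fold lower in Sox2xOct4 +DOX (limma adjusted p = 0.0092), whose arrays were at -7.05 and -6.22, not well above background. In that comparison 1 of the 7 genes was called, beside 4.36% of all genes. Pou5f1 stood at 2.64 and 0.92 in Sox2xOct4 +DOX, against 6.20 and 4.79 in Oct4 +DOX, so these groups differ in more than Sox2. The part of this in the change of Lrp2 was not tested. Lrp2 was tested only because it was well above background in Oct4 +DOX, so it had to differ from groups without a signal, and both comparisons cross slides. Of its other probes, probe 2 had -3.30 and -1.35 in Oct4 +DOX, against -6.06 and -6.53 in rtTA +DOX, and probe 3, shown above, had -5.85 and -3.52 in Oct4 +DOX and stayed below that mark elsewhere. On probe 2, well above background on 1 of the 2 rtTA +DOX arrays, the log2 change was 3.97 ± 0.61. Its limma adjusted p was 0.027 over the probes that passed the filter. The SE of a single probe comes from a separate fit to all probes. For probe 3, which rtTA +DOX only bounds, the level in Oct4 +DOX was higher by at least 4.15-fold. Its limma adjusted p was 0.034 over the probes that passed the filter. Both probes passed the filter through Oct4 +DOX, so neither adds support. Probe 4 was well above background on 1 array only, rtTA +DOX replicate 2 (-6.37).

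The call of Lrp2 in Oct4 +DOX against rtTA +DOX depended on the processing. With normexp background correction and quantile normalization the log2 change was 1.19 (limma adjusted p = 0.078), and with only these groups in the fit it was 3.53 (0.051). Without Oct4 +DOX replicate 2 it was 2.92 (0.13), without rtTA +DOX replicate 1 it was 3.92 (0.13) and without rtTA +DOX replicate 2 it was 3.14 (0.18). Against Oct4 +DOX, the lower level in Sox2xOct4 +DOX was still called with normexp and quantile normalization (limma adjusted p = 0.029), and it was not called with only these groups in the fit (0.068). Cubn gave a change of -1.95 ± 0.65 in that comparison (limma adjusted p = 0.13), Amn -1.87 ± 0.81 (0.22) and Tcn2 -1.07 ± 0.54 (0.29). Slc46a1 gave -0.94 ± 0.39 (limma adjusted p = 0.21). Mmab gave -1.20 ± 0.31 on probe 1 (limma adjusted p = 0.067), while its probe 2 gave 0.09 ± 0.42.

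**Figure D5:**
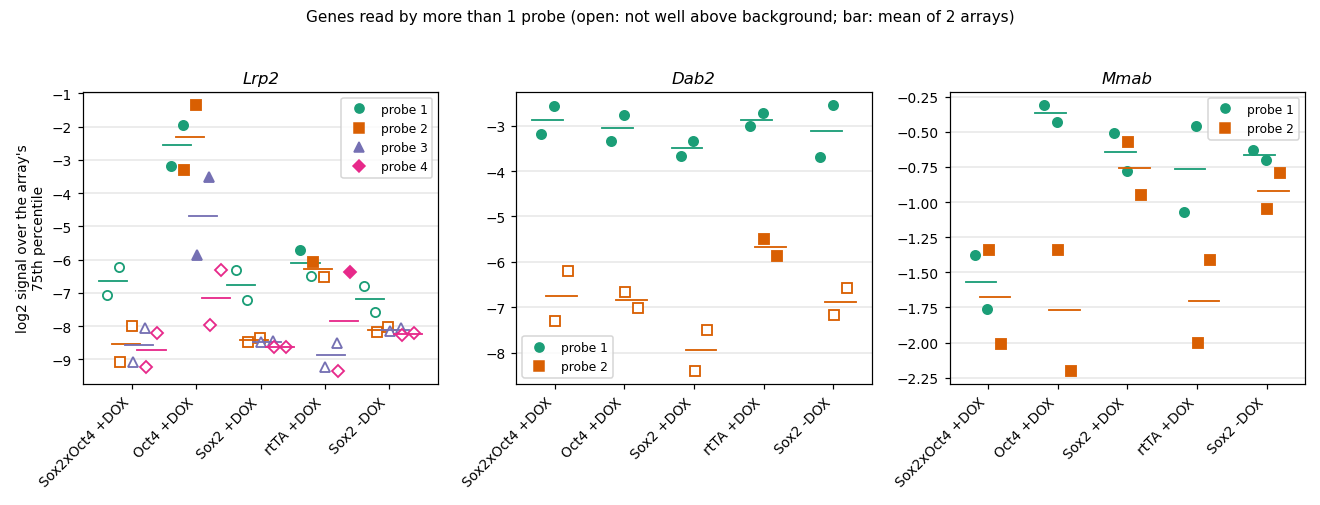
Log2 level (y axis) on each probe of Lrp2, Dab2 and Mmab, by group (x axis), with bars for the mean of 2 arrays and open symbols for probes not well above background. Probes 1 to 3 of Lrp2 are well above background on both Oct4 +DOX arrays, and the 2 Mmab probes order the groups differently, with Oct4 +DOX highest by mean on probe 1 (-0.37) and lowest on probe 2 (-1.77).

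The 2 control groups were set against each other as well, across slides. In rtTA +DOX against Sox2 -DOX, Cubn gave a log2 change of -0.25 ± 0.65, Amn 0.04 ± 0.81, Tcn2 0.51 ± 0.54 and Slc46a1 0.31 ± 0.39. Dab2 gave 0.25 ± 0.44 and Mmab -0.10 ± 0.31, and Lrp2 was well above background on 1 of these 4 arrays. With limma 0 of the 7 genes were called and none had an unadjusted p under 0.05, beside 0% of all genes called and 1068 genes with an unadjusted p under 0.05. The 95% confidence interval for Amn ran from -1.83 to 1.91, so a change of several-fold could have gone unseen at this number of arrays.

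Some genes were read by more than 1 probe. Dab2 probe 1 was well above background on all 10 arrays, at -3.69 to -2.55, and its groups overlapped in 5 of the 6 comparisons. Dab2 probe 2 was so in rtTA +DOX only, at -5.50 and -5.86. Probe 2 passed the filter only through that group, so lower values in the other groups were favoured in advance. It was at least 1.59-fold lower in Sox2 +DOX than in rtTA +DOX, which therefore adds no support. Its limma adjusted p was 0.026 over the probes that passed the filter. Probe 1 gave a log2 change of -0.62 ± 0.46 in that comparison (limma adjusted p = 0.39 over the same probes). For Mmab in Sox2xOct4 +DOX against rtTA +DOX, probe 1 gave -0.81 ± 0.34 and probe 2 gave 0.03 ± 0.42. Folh1 ranged from -9.15 to -7.49 over the 10 arrays, none well above background, so these arrays set no level for it.

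By mean level over the groups, Cubn ordered as Sox2 +DOX (1.47 ± 1.16, SD, n = 2), Sox2xOct4 +DOX (3.28 ± 1.18), Oct4 +DOX (5.23 ± 0.07), rtTA +DOX (5.43 ± 0.42) and Sox2 -DOX (5.68 ± 0.26). Amn ordered as Sox2 +DOX (1.01 ± 1.75), Sox2xOct4 +DOX (3.08 ± 1.36), Oct4 +DOX (4.95 ± 0.28), Sox2 -DOX (5.86 ± 0.24) and rtTA +DOX (5.90 ± 0.10). In Amn the arrays of Sox2 +DOX and Sox2xOct4 +DOX overlapped, as did those of rtTA +DOX and Sox2 -DOX. In Cubn the Oct4 +DOX arrays overlapped those of rtTA +DOX, which overlapped those of Sox2 -DOX. Slc46a1 ordered as Sox2 +DOX (-0.39 ± 0.19), Sox2xOct4 +DOX (0.11 ± 0.72), Sox2 -DOX (0.48 ± 0.12), rtTA +DOX (0.79 ± 0.04) and Oct4 +DOX (1.05 ± 0.50), and among its neighbours in this order only Sox2 -DOX and rtTA +DOX did not overlap. Tcn2 ordered as Sox2 +DOX (0.91 ± 0.54), Sox2xOct4 +DOX (1.45 ± 0.70), Oct4 +DOX (2.52 ± 0.53), Sox2 -DOX (2.88 ± 0.66) and rtTA +DOX (3.39 ± 0.67). Its only neighbours without overlap were Sox2xOct4 +DOX and Oct4 +DOX. On probe 1, Mmab was lowest in Sox2xOct4 +DOX (-1.57 ± 0.27) and highest in Oct4 +DOX (-0.37 ± 0.09). Between them, rtTA +DOX (-0.76 ± 0.43), Sox2 -DOX (-0.66 ± 0.05) and Sox2 +DOX (-0.65 ± 0.19) overlapped. On Mmab probe 2 the lowest mean was in Oct4 +DOX (-1.77 ± 0.61) and the highest in Sox2 +DOX (-0.76 ± 0.26).

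Genes with the most similar pattern were ranked by the root mean square difference between levels centred on each gene's own mean over the 10 arrays. For Cubn these were Ces2e (0.31), Guca2b (0.31), Sgk2 (0.34), Scin (0.36) and Ceacam20 (0.38), beside a median of 1.74 over all genes. For Amn they were Dcst1 (0.27), Alpi (0.29), Chp2 (0.29), Mme (0.33) and Akr1b7 (0.35), beside a median of 2.03. Alpi, the intestinal alkaline phosphatase, is one of the 10 enterocyte genes above, and Mme is a brush-border peptidase. The difference between Cubn and Amn themselves was 0.42, against 0.94 between Cubn and Tcn2 and 2.06 between Cubn and Lrp2. For Slc46a1 the most similar were Ifi35 (0.17), Txnrd2 (0.18), Sidt2 (0.18), Otud7b (0.19) and Cflar (0.19), beside a median of 0.76.

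Other genes of the same pathways were called in both directions. The counts below stand beside 7.83% of all genes called in Sox2 +DOX against Sox2 -DOX and 6.35% in Sox2xOct4 +DOX against rtTA +DOX, with 4.80% and 3.16% of all genes called lower, and the medians beside -0.10 and 0.07. Of 12 genes that carry B12 or handle it inside cells 11 were tested, and the intrinsic factor gene was not among them. Abcc1, a transporter that exports B12 from cells, rose in both within-slide comparisons. It had 1.98 and 1.17 in Sox2 +DOX, against -0.61 and -0.17 in Sox2 -DOX (log2 change 1.97 ± 0.43, limma adjusted p = 0.032), and 1.82 and 0.81 in Sox2xOct4 +DOX, against -0.74 and -0.38 in rtTA +DOX (1.88 ± 0.43, 0.042). The other 10 were not called and ran from -0.94 (Mmaa) to 1.33 (Mmachc) in Sox2 +DOX against Sox2 -DOX and from -1.25 (Lmbrd1) to 1.42 (Cd320) in Sox2xOct4 +DOX against rtTA +DOX. The list's median log2 change was 0.30 in Sox2 +DOX against Sox2 -DOX and 0.04 in Sox2xOct4 +DOX against rtTA +DOX. With 1 array left out the second ran from -0.12 (without rtTA +DOX replicate 1) to 0.21 (without rtTA +DOX replicate 2), and the first from 0.21 to 0.45.

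All 9 listed folate carriers and hydrolases were tested. The efflux pumps Abcg2 and Abcc2, which also carry folates, fell in both comparisons. Abcg2 had 2.05 and 2.89 in Sox2 +DOX, against 6.10 and 5.02 in Sox2 -DOX (log2 change -3.09 ± 0.46, limma adjusted p = 0.0091), and it was 5.06-fold lower in Sox2xOct4 +DOX than in rtTA +DOX (-2.34 ± 0.46, 0.026). Abcc2 had -2.59 and -1.29 in Sox2 +DOX, against 2.26 and 1.29 in Sox2 -DOX (-3.72 ± 0.70, 0.02), and it had -2.22 and -0.11 in Sox2xOct4 +DOX, against 2.35 and 2.16 in rtTA +DOX (-3.42 ± 0.70, 0.03). Ggh, the lysosomal folate hydrolase, rose in Sox2 +DOX against Sox2 -DOX (1.71 ± 0.40, 0.04), and in Sox2xOct4 +DOX against rtTA +DOX it gave 0.97 ± 0.40 (0.19). The list's median change was 0.01 in the first comparison and 0.18 in the second. With 1 array left out the first ran from -0.25 (without Sox2 +DOX replicate 2) to 0.02, and the second from -0.02 (without either rtTA +DOX array) to 0.19.

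Of 16 enzymes of folate one-carbon metabolism 14 were tested. Shmt1, the cytosolic serine hydroxymethyltransferase, had 1.50 and 0.77 in Sox2 +DOX, against -0.76 and -0.54 in Sox2 -DOX, and rose in both comparisons (log2 changes 1.79 ± 0.34 and 1.42 ± 0.34, limma adjusted p = 0.02 and 0.046). Aldh1l1, which oxidises formyl-tetrahydrofolate, had 2.17 and 2.74 in Sox2xOct4 +DOX, against 4.76 and 4.57 in rtTA +DOX, and fell in both comparisons (-1.99 ± 0.40 and -2.21 ± 0.40, limma adjusted p = 0.026 and 0.021). The other 12 were not called in either. The list's median change was 0.72 in Sox2 +DOX against Sox2 -DOX and 0.45 in Sox2xOct4 +DOX against rtTA +DOX. The first was 0.39 without Sox2 +DOX replicate 1, with none called, and 1.43 without replicate 2, with 4 that rose and 1 that fell. The second was 0.23 without Sox2xOct4 +DOX replicate 1, 0.75 without replicate 2 and 0.15 without rtTA +DOX replicate 1.

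All 14 listed endocytosis partners of cubam and megalin were tested. Ap2a2, a subunit of the clathrin adaptor AP-2, had -0.01 and 0.28 in Sox2 +DOX, against 1.79 and 1.45 in Sox2 -DOX, and fell in both comparisons (log2 changes -1.49 ± 0.33 and -1.56 ± 0.33, limma adjusted p = 0.033 and 0.032). The phosphatase gene Ocrl rose in Sox2 +DOX against Sox2 -DOX (1.32 ± 0.30, 0.037). The endosomal chloride transporter Clcn5 and the recycling factor Ehd1 fell in Sox2xOct4 +DOX against rtTA +DOX (-1.98 ± 0.40 and -1.31 ± 0.31, 0.029 and 0.046). Of these 14 genes, 1 rose and 1 fell in the first comparison and 3 fell in the second, with medians of -0.21 and -0.46. The first median was -0.08 when Sox2 -DOX replicate 1 was left out, and -0.38 when replicate 2 was. With 1 array left out none of the 14 was called in the first comparison and at most 1 in the second, whose median ran from -0.63 to -0.37. Over the 4 lists, every gene named as called kept its sign in all the alternatives run, and each lost its call in some of them. Ocrl kept its call in 7 of 15 and Ehd1 in 5 of 14, the lowest counts in the first and second comparison. In Oct4 +DOX against rtTA +DOX none of the tested genes of the 4 lists was called with limma.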

How the data were processed

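RNA from mouse ileum was linearly amplified and carried the dye Cy3, per the labels' protocols, and was measured on 10 one-colour Agilent arrays, grouped by the titles of the samples. The deposited scanner files hold, per the file headers, an intensity per spot from Agilent Feature Extraction, which took off the background, removed spatial trends, set surrogates for dim spots and did not normalize arrays to each other. Its version was 9.5.3.1 (slide 1), 10.7.1.1 (slide 2) or 10.7.3.1 (slide 3) in these headers, and 9.1 in the submitters' processing notes. A deposited table holds the authors' normalized signal for the 4 TetON-Sox2 arrays and was used as an alternative only, through its value columns. Its other 4 per-sample columns were not used, and its making is not described in the labels.

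Controls and outlier spots, of which each array had 45 to 65, were removed, and the spots of each probe averaged. Of 41174 probes, 31 without an unflagged spot on some array were dropped. The log2 of the processed signal minus the array's 75th percentile was used, and no probe was saturated. Of 41143 probes, 28752 were kept, each well above background in both replicates of some group, among them 11 of the 13 probes of the uptake genes. The kept probe with the highest mean stood for a gene, and 80.2% of probes were named through RefSeq tables (GRCm38.p6), from which upstream sequences were also taken (all genes but Tcn2). A gene not well above background in a group has only a bound there, and its fold, written as "at least", uses the dimmest signal that passed that mark. The comparisons used limma 3.58.1 (R 4.3.3) on all 10 arrays, with a mean for each group (5 residual and 3.3 prior degrees of freedom, median SE 0.39) and Benjamini-Hochberg adjustment over all genes tested. Of the 7 comparisons, 2 lay within a slide, and 1 was the difference of these 2. Precision is limited by having 2 arrays per group. The code was tested on simulated data. Figures were made with Python 3.11.15 and matplotlib 3.10.9. The genes, lists and comparisons were chosen with earlier results of these data known. Named genes were the 8 uptake genes, up to 4 called members of each pathway list with the smallest p in the within-slide comparisons, the 5 genes most like Cubn, Amn and Slc46a1, the genes that check the labels, and the lowest and highest uncalled genes of a list, added after their values were seen. Lists are described by counts and medians. Alternatives were other background corrections and normalizations, no filter, a floor, the mean of a gene's probes, a variance trend, only the groups compared, replicate or slide as a block, the authors' table, each array left out and, added after seeing the data, a fit without the Oct4 +DOX group.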

Additional observations from a re-analysis of the deposited data

How the results depend on the processing

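The number of uptake genes called moved under some settings. In Sox2 +DOX against Sox2 -DOX it was 1 (Cubn) in place of 2 in the authors' normalized table and with only the groups compared in the fit, where Amn had limma adjusted p of 0.056 and 0.059. It was 3 with a variance trend, which added Tcn2 (0.037), and leaving out 1 array gave 0 to 2. In Sox2xOct4 +DOX against rtTA +DOX it was 2 in place of 0 with a variance trend, and 0 to 2 with 1 array left out. In Oct4 +DOX against rtTA +DOX it was 0 in place of 1 with normexp and quantile normalization and with only the groups compared, and 0 to 1 with 1 array left out. In Sox2 +DOX against rtTA +DOX it was 2 in place of 3 with only the groups compared, where Tcn2 lost its call (0.051), and leaving out 1 array gave 0 to 3. In Sox2xOct4 +DOX against Oct4 +DOX it was 2 in place of 1 with normexp and quantile normalization and 0 with only the groups compared. Fits on fewer arrays have fewer degrees of freedom, and the cause of the other moves was not tested.

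Values of single genes were followed under the alternatives in the within-slide comparisons, without Lrp2. In the other comparisons only the genes called there were followed, so a call gained by another gene is not among these values. Among the values followed, signs turned only in genes near 0. Dab2 in Sox2xOct4 +DOX against rtTA +DOX was -0.54 with the mean of its probes, -0.03 with normexp and quantile normalization, -0.07 with quantile normalization alone and -0.32 to 0.32 with 1 array left out (turned to -0.32 and -0.14 without Sox2xOct4 +DOX replicate 2 and rtTA +DOX replicate 1), and in Sox2 +DOX against Sox2 -DOX it was -0.95 to 0.20, turned without Sox2 -DOX replicate 2. Mmab in Sox2 +DOX against Sox2 -DOX was -0.12 to 0.15, turned to -0.12 and -0.02 without Sox2 +DOX replicate 1 and Sox2 -DOX replicate 2. Of the values of single genes under alternatives, 200 kept sign and side of the threshold, 24 lost a call, 5 gained one and 8 turned.

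Same-numbered replicates correlated by -0.13 to 0.27 in their deviations, not all above 0.1, so the samples were not treated as paired. With 2 arrays per group these values cannot exclude pairing between some groups. With a replicate block the counts of called genes were 2, 0, 1, 3, 1, 0 and 0 for the 7 comparisons, as without it. The slide block can change nothing within a slide. Over all genes, 1492 calls in Sox2 +DOX against Sox2 -DOX became 612 with only the groups compared, 690 in the authors' table, 932 without the filter and 161 to 284 without Sox2 +DOX replicate 1 or a Sox2 -DOX array, and 1209 in Sox2xOct4 +DOX against rtTA +DOX became 473, 776 without the filter and 105 to 360 without an rtTA +DOX array or Sox2xOct4 +DOX replicate 1. With normexp and quantile normalization 49.3% of calls in Sox2 +DOX against Sox2 -DOX were higher, against 38.7% as reported, as were 49.6% against 38.6% in Sox2 +DOX against rtTA +DOX and 57.1% against 87.5% in the difference of responses. In Sox2 +DOX against Sox2 -DOX the median change of all genes was then 0.00, against -0.10. Without the filter that median was -0.30. Some settings raised the number of calls over all genes. With normexp and quantile normalization 1492 became 1915 and 1209 became 1623, and with a variance trend they became 1890 and 1587. Quantile normalization alone gave 272 calls in Oct4 +DOX against rtTA +DOX. A variance trend gave 1096 in Sox2xOct4 +DOX against Oct4 +DOX. In Oct4 +DOX against rtTA +DOX 192 calls became 111 with normexp and quantile normalization and 35 to 97 without Oct4 +DOX replicate 2 or an rtTA +DOX array, in Sox2 +DOX against rtTA +DOX 1596 became 1045 without the filter, 934 with only the groups compared and 195 to 1678 with an array left out, and in Sox2xOct4 +DOX against Oct4 +DOX 831 became 546, 68 and 312 to 755. The difference of responses had 32 calls, and 7 with normexp and quantile normalization, 16 with a variance trend and 5 to 52 with an array left out. In rtTA +DOX against Sox2 -DOX 0 calls became 13 with only the groups compared and 11 without the Oct4 +DOX group. Genes near background, such as Lrp2, are limited by signal.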
